A study of Mus musculus with 2 samples.

Results

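The enzymes of the pyruvate dehydrogenase complex and the citric acid cycle, with their regulators and the enzymes that fill and drain the cycle, were followed as 35 named genes among 55450 annotated genes in the heart of young mice. The genes were chosen by name: each symbol was looked up in the deposited transcript tables, and all 35 were found under 1 gene identifier each. The samples were hearts of male B6CASTF1/J mice aged 10 days, an F1 cross between the B6 laboratory strain and CAST, a strain of wild origin. They formed 1 group of 2 libraries, called replicate 1 and replicate 2 after their labels, with no treatment and no genotype other than this hybrid background. The labels number the males separately but point to the same donor record, so every spread given here is that between these 2 samples.

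Pyruvate made from glucose or lactate enters mitochondria and is turned into acetyl-CoA by the pyruvate dehydrogenase complex, which kinases switch off by phosphorylation and phosphatases switch on again. The citric acid cycle oxidises acetyl-CoA, from pyruvate or from fatty acids, and passes the electrons to the respiratory chain. The newborn heart moves from glucose and lactate towards fatty acids as its main fuel, and its mitochondria multiply as it matures.

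Each library had a total of 38851514 expected counts in replicate 1 and 37907585 in replicate 2, of which genes of the mitochondrial genome took 22.6% and 24.2%. The levels below are in TPM, a share of all transcripts in which counts are first divided by transcript length, so that genes can be set side by side. The heart label fits the markers. All 8 cardiomyocyte genes were detected, from Ryr2 with 320 TPM in replicate 1 and 308 TPM in replicate 2 to Myh6 with 8595 and 8333 TPM. This list was drawn up as ventricular, but most of its genes, such as Myh6 and Ttn, are not restricted to the ventricle. The 4 liver genes summed to 1.01 and 0.51 TPM. The libraries differed in other cell types. Summed TPM of 10 brown and white adipocyte genes was 448 in replicate 1 and 32.3 in replicate 2, and that of 6 atrial cardiomyocyte genes was 1518 and 273. Fibroblast genes summed to 1938 and 1223 TPM, endothelial genes to 327 and 263, macrophage genes to 55.0 and 34.6, Schwann and neuronal genes to 17.6 and 2.76, skeletal muscle genes to 96.6 and 81.3, and red blood cell genes to 12065 and 12945. Within these lists, ordered by the mean of both libraries, the levels ran from Pdgfra (21.3 and 16.7 TPM) to Col3a1 (750 and 482) in fibroblast genes, from Tek (25.5 and 21.5) to Cdh5 (134 and 104) in endothelial genes and from Cd68 (2.44 and 1.31) to Lyz2 (14.0 and 10.1) in macrophage genes. They ran from Alas2 (63.4 and 62.5 TPM) to Hbb-bs (4098 and 5049) in red blood cell genes, from Myh4 (0 and 0) to Acta1 (93.4 and 78.8), which the heart also expresses, in skeletal muscle genes and from Serpina1a (0 and 0) to Ttr (0.70 and 0.34) in liver genes. In tissue RNA, fewer cells of a type and less RNA per cell cannot be told apart.

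The genes of the cycle were among the more abundant nuclear genes of these hearts. All 35 were detected, at 1 TPM or more in both libraries. Their median level was 226 TPM in replicate 1 and 198 TPM in replicate 2 (212 ± 20.03, SD, n = 2), beside 11.1 and 9.57 TPM over the 11528 nuclear protein-coding genes that were detected in both. By mean level, 24 of the 35 lay in the top 10% of those coding genes, above 54.8 TPM, and 4 lay under their median. Together the 35 took 0.869% of all TPM in replicate 1 and 0.772% in replicate 2 (0.820% ± 0.0682, SD, n = 2). The levels ran from Mdh1, at 842 and 730 TPM, down to Pdp2, at 4.44 and 1.92 TPM. In this order, 23 of the 34 neighbouring pairs of genes overlapped in their ranges over the libraries.

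**Figure D1:**
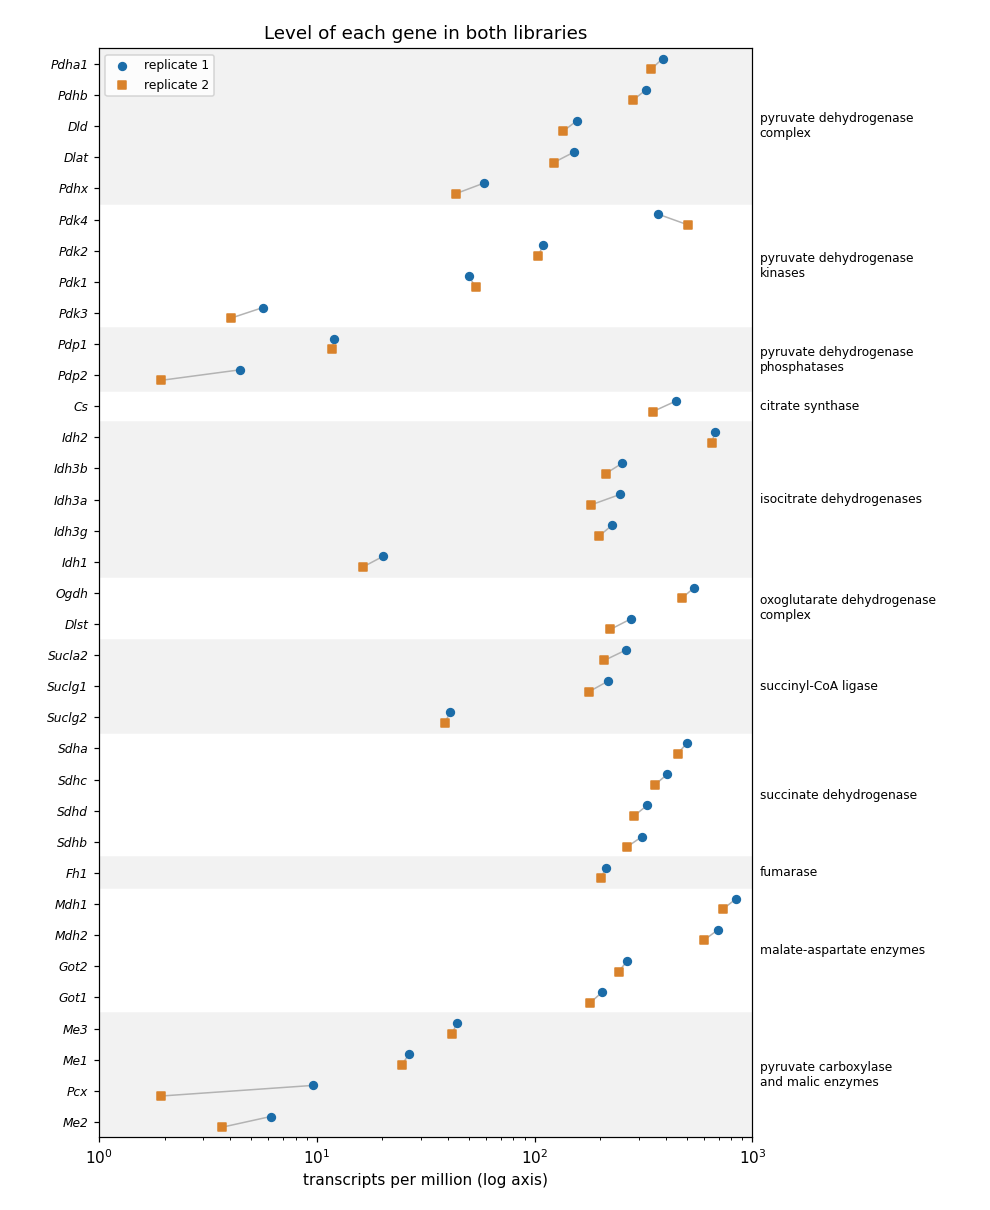
TPM of each of the 35 genes on a log axis, grouped by role, with a circle for replicate 1 and a square for replicate 2. Most enzymes of the cycle lie above 100 TPM, while Pdp1, Pdp2, Pdk3, Pcx and Me2 lie near or under 10 TPM.

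The subunits of the pyruvate dehydrogenase complex differed in level by catalytic role. Pdha1, which encodes the alpha subunit of the decarboxylase E1, had 387 TPM in replicate 1 and 343 TPM in replicate 2. Its partner Pdhb, the beta subunit, had 325 and 282 TPM, so that Pdha1 exceeded Pdhb by 1.19-fold and 1.21-fold. In the other deposited quantification, made directly from reads, the order was the reverse, with ratios of 0.906 and 0.930, and the subunits were close to equal in either. Dld, the dihydrolipoamide dehydrogenase E3 that this complex shares with the oxoglutarate dehydrogenase complex, had 156 and 135 TPM. Dlat, the acetyltransferase core E2, had 152 and 122 TPM. The lowest subunit was Pdhx, which anchors E3 to the core, at 58.5 and 43.4 TPM. Dlat exceeded Pdhx by 2.59-fold and 2.81-fold over all transcripts, and by 5.84-fold and 5.77-fold in the other quantification. Dlat-201, its coding transcript, had 94.3 and 75.8 TPM in the first quantification and 105 and 92.7 TPM in the other. All Pdhx transcripts are coding, and summed to 58.7 and 51.6 TPM in the other quantification. Dlat also stood above Dld there, at 343 and 298 TPM against 241 and 219 TPM.

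Among the kinases that switch the complex off, Pdk4 led. This isozyme is induced by fasting and by fatty acids in heart and skeletal muscle. It had 370 TPM in replicate 1 and 505 TPM in replicate 2, or 69.2% and 75.7% of the TPM of all 4 kinase genes. Pdk2, the widely expressed isozyme, had 109 and 104 TPM, and Pdk1, a target of the hypoxia-inducible factor, had 49.9 and 53.7 TPM. Pdk3 was the lowest, at 5.65 and 4.03 TPM and 1.06% and 0.605% of the kinase TPM. Pdk4 stood above Pdk2 by 3.39-fold and 4.84-fold, and above Pdk1 by 7.41-fold and 9.38-fold. Pdk1 was under Pdk2 with ratios of 0.458 in replicate 1 and 0.517 in replicate 2, past 2-fold in 1 library and just short of it in the other.

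The phosphatases that reverse this were low beside Pdk4, Pdk2 and Pdk1. Pdp1, the calcium-stimulated catalytic subunit that predominates in muscle, had 12.0 TPM in replicate 1 and 11.8 TPM in replicate 2. Pdp2, the isozyme that calcium does not stimulate, had 4.44 and 1.92 TPM. By mean level Pdp1 lay above 54.5% of the detected nuclear coding genes and Pdp2 above 16.2%. Pdp1 exceeded Pdp2 by 2.66-fold in replicate 1 and 5.89-fold in replicate 2, with Pdp1 nearly level by TPM. Summed TPM of the 4 kinases was 32.6-fold that of both phosphatases in replicate 1 and 48.6-fold in replicate 2. In the other quantification the same ratio was 34.8 and 49.6. These are ratios of RNA and say nothing of enzyme activity.

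Citrate synthase, the enzyme that joins acetyl-CoA to oxaloacetate and a common measure of mitochondrial content, was encoded by Cs at 447 TPM in replicate 1 and 350 TPM in replicate 2. Of the isocitrate dehydrogenases, the mitochondrial NADP-dependent Idh2 was the most abundant, at 672 and 652 TPM, and the cytosolic NADP-dependent Idh1 the least, at 20.1 and 16.3 TPM. Idh2 exceeded Idh1 by 33.3-fold and 39.9-fold. The NAD-dependent enzyme that works in the cycle is a complex of 3 subunits, and these had like levels when all transcripts of each gene were summed. Idh3a, the catalytic alpha subunit, had 248 and 182 TPM. Idh3b had 253 and 212 TPM, and Idh3g, the gamma subunit, had 226 and 198 TPM. The ratios among the 3 ranged from 0.859 to 1.12 over both libraries, and Idh2 stood above Idh3a by 2.71-fold and 3.58-fold. Their main coding transcripts were less even. Idh3a-205 had 123 and 94.4 TPM, against 245 and 206 TPM for Idh3b-201 and 212 and 186 TPM for Idh3g-201.

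Ogdh, the E1 of the oxoglutarate dehydrogenase complex, was the fourth most abundant of the 35 in the first quantification, at 541 TPM in replicate 1 and 474 TPM in replicate 2, and the most abundant in the other, at 1052 and 998.5 TPM. In the other, 2 short transcripts held much of this: Ogdh-207, of 702 bases, 229 and 216 TPM, and Ogdh-206, of 621 bases, 266 and 257 TPM. Ogdh-201, of 4127 bases, had 540 and 509 TPM there, under the 799 and 847 TPM of Idh2-201. Dlst, the E2 partner of Ogdh, had 278 and 223 TPM, and 519 and 463 TPM in the other quantification. The ratio of Ogdh to Dlst was 1.95 and 2.12, on both sides of 2-fold. For succinyl-CoA ligase, the common alpha subunit Suclg1 had 218 and 178 TPM. The beta subunit decides which nucleotide the enzyme uses: Sucla2, the ADP-specific one, had 264 and 209 TPM, and Suclg2, the GDP-specific one, had 40.9 and 38.8 TPM. Sucla2 thus exceeded Suclg2 by 6.43-fold and 5.37-fold, and by 6.41-fold and 5.37-fold in the other quantification.

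Succinate dehydrogenase, which is also complex II of the respiratory chain, had even levels over its 4 subunits. The flavoprotein Sdha had 500 TPM in replicate 1 and 453 TPM in replicate 2. Sdhb, the iron-sulphur subunit, had 312 and 265 TPM, and the membrane anchors Sdhc and Sdhd had 406 and 356 TPM and 328 and 286 TPM. The highest of the 4 exceeded the lowest by 1.61-fold and 1.71-fold, against 6.61-fold and 7.89-fold within the pyruvate dehydrogenase complex. Fumarase, encoded by Fh1, had 213 and 201 TPM, and 432 and 436.5 TPM in the other quantification.

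The malate-aspartate shuttle carries cytosolic reducing equivalents into mitochondria. Its 4 enzymes had the highest summed TPM of the groups by role, at 2006 in replicate 1 and 1750 in replicate 2. Succinate dehydrogenase, also with 4 genes, came to 1546.5 and 1360.5 TPM. The shuttle group includes Mdh2, which is also an enzyme of the cycle, and its lead rests on counting Mdh2 there. The groups differ in their number of genes. The cytosolic malate dehydrogenase Mdh1 had 842 and 730 TPM and the mitochondrial Mdh2 had 694 and 597 TPM. The ratio of Mdh2 to Mdh1 was 0.825 and 0.817 in the first quantification and 1.14 and 1.18 in the other, so which of the pair was higher depends on the quantification. Got1, the cytosolic aspartate aminotransferase, had 204 and 180 TPM, and the mitochondrial Got2 had 266 and 243 TPM, a ratio of 1.30 and 1.35. The Got2 value is uncertain. Of the 31-base words in its main transcript, 57.0% also occur in other genes. Gm10874 holds 45.6% of the words and was assigned 0.07 and 0.01 TPM. Got2-ps1, an annotated copy, holds 38.9% and was assigned 68.0 and 58.3 TPM.

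The enzymes that feed pyruvate into the cycle or draw malate from it were low. Over all transcripts of each gene, the malic enzymes were led by Me3, the mitochondrial NADP-dependent form, at 43.9 TPM in replicate 1 and 41.8 TPM in replicate 2. Of this its coding transcript was assigned 1.42 and 1.32 TPM, so the rank of its coding RNA cannot be read from these values. The cytosolic Me1 had 26.5 and 24.6 TPM, and Me2, the mitochondrial NAD-dependent form, had 6.13 and 3.69 TPM. Pcx, the pyruvate carboxylase that makes oxaloacetate from pyruvate, had 9.56 TPM in replicate 1 and 1.93 TPM in replicate 2, a spread as large as its mean (5.75 ± 5.40, SD, n = 2). Cs exceeded Pcx by 46.3-fold in replicate 1 and 172-fold in replicate 2. By mean level over all transcripts, Me3 lay above 87.0% and Me1 above 77.2% of the detected nuclear coding genes. Pcx lay above 31.2% of them and Me2 above 26.9%.

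Of 20 pairs of paralogs, partner subunits and opposed enzymes, 11 were past 2-fold in the same direction in both libraries and 9 were not. In the other quantification 13 were, as Pdk1 to Pdk2 and Ogdh to Dlst joined them. The ratios use all transcripts of each gene, coding or not, which matters most for Me3 and Dlat. With 2 libraries an exact sign-flip permutation test cannot go below p = 0.5, so none was run on these pairs. The pairs whose ratio differed most between the libraries were Cs to Pcx and Pdp1 to Pdp2, and those that differed least were Mdh2 to Mdh1 and Pdha1 to Pdhb.

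**Figure D2:**
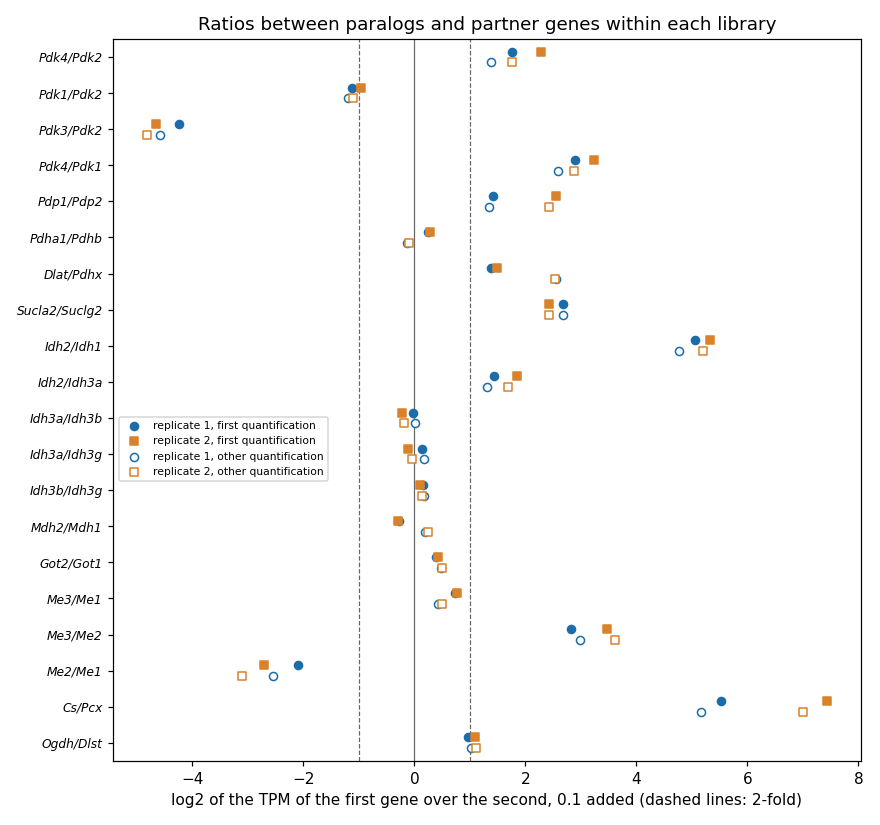
log2 ratio of TPM within each library for 20 pairs, with 0.1 added to each TPM; circles are replicate 1 and squares replicate 2, filled for the first quantification and open for the other, and dashed lines mark 2-fold. Idh2 over Idh1 and Cs over Pcx lie farthest to the right and Pdk3 over Pdk2 farthest to the left, while the subunits of the NAD-dependent isocitrate dehydrogenase lie near 0.

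The ratio between the libraries was taken as replicate 1 over replicate 2 from expected counts scaled by TMM factors, which set the bulk of genes equal. With 1 group of 2 libraries there is no test of these ratios; each has an exact 95% Clopper-Pearson interval that covers counting error only. The median log2 ratio of the 35 genes was -0.02, beside -0.01 over the 13208 genes with a mean count of at least 50, a filter that all 35 passed. On the TPM scale both medians moved, to 0.20 and 0.21. By TPM 33 of the 35 were higher in replicate 1 and by scaled counts 14, so a small difference in the TPM values above has no direction of its own. For 20 of the 35 the log2 ratio of scaled counts lay within 0.1 of 0, beside 38.04% of all genes with enough counts, and for 28 it lay within 0.2, beside 64.1%. The intervals of 24 left out 0, of which 11 were higher and 13 lower in replicate 1, beside 42.9% of all genes with enough counts. None of these shares was matched for level, and most of the 35 were abundant genes, whose counting intervals are narrower. The common biological coefficient of variation, as edgeR names it, was 0.147 over 16161 genes. The counting intervals leave this spread out. It is 1 value for all those genes, including markers that differed many-fold, and was not estimated for abundant genes alone.

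**Figure D3:**
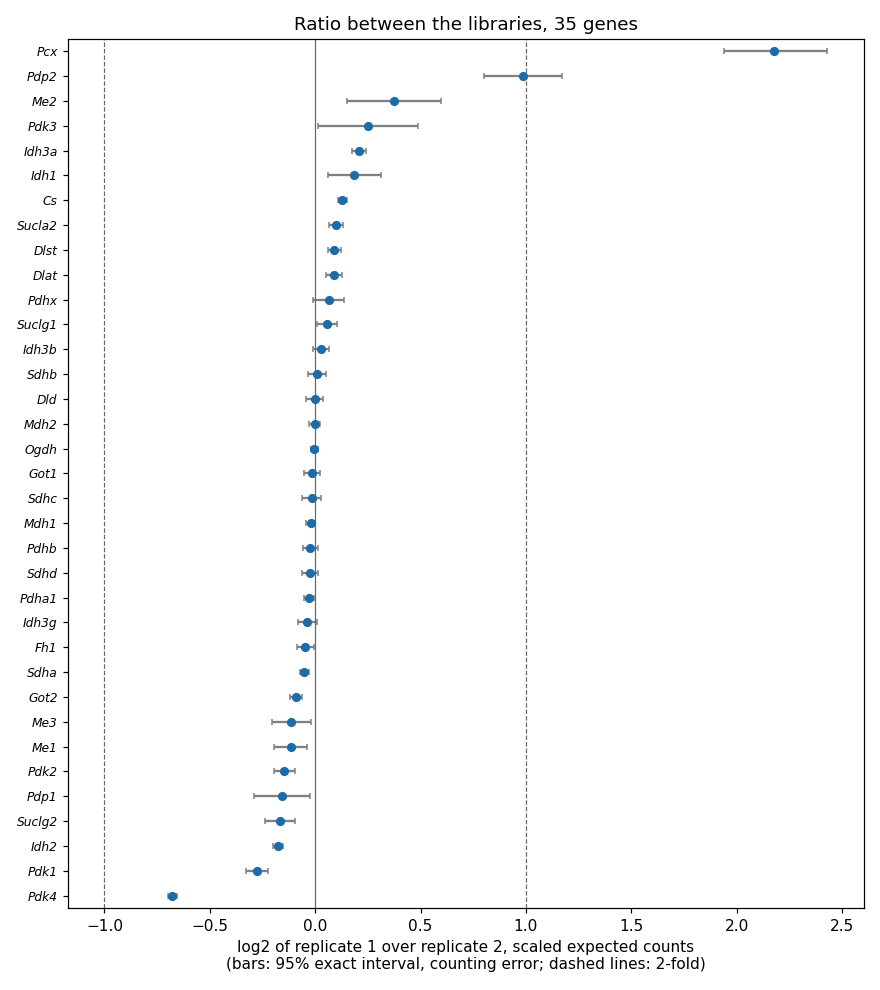
log2 ratio of replicate 1 over replicate 2 for each of the 35 genes from scaled expected counts, with 95% exact intervals for counting error; dashed lines mark 2-fold. Pcx lies past 2-fold, Pdp2 at its edge, and Pdk4 is the lowest.

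Past 2-fold, 1 of the 35 was higher in replicate 1, where 0.984% of all genes with enough counts were, and none was lower, where 0.803% were. That gene was Pcx, whose expected count was 841 in replicate 1 against 168 in replicate 2, for a log2 ratio of 2.18 (interval 1.94 to 2.43) or 4.53-fold. At 1.5-fold, 2 of the 35 were higher, against 3.14% of all genes, and 1 was lower, against 3.13%. The second of the higher genes was Pdp2, with 751 counts in replicate 1 and 344 in replicate 2, a log2 ratio of 0.98 (interval 0.80 to 1.17), which passed 2-fold under 3 other scalings. The lower gene was Pdk4, with 28318 counts in replicate 1 and 41081 in replicate 2, a log2 ratio of -0.68 (interval -0.70 to -0.66), so it was 1.60-fold higher in replicate 2. The next largest ratios were those of Me2, at 0.37 from 403 and 282 counts, Pdk1, at -0.28 from 5567 and 6111 counts, and Pdk3, at 0.25 from 341 and 260 counts. For the enzymes of the cycle proper the ratios were small: Idh3a was at 0.21, Idh2 at -0.18 and Cs at 0.13, while Ogdh, Mdh2 and Dld were at -0.0046, -0.0025 and -0.0023.

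By scaled counts, markers of several other cell types differed between the libraries in the direction of Pcx. The 8 cardiomyocyte genes and the red blood cell genes differed in the opposite direction. Of the 10 adipocyte genes, 8 had enough counts, and all 8 were past 2-fold higher in replicate 1. Ucp1, the uncoupling protein of brown fat, was the highest of that list by mean level, with 239 TPM in replicate 1 and 5.02 TPM in replicate 2. Lep, the lowest of the list by mean level, and Retn were at 0 in replicate 2 and at 0.12 and 0.13 TPM in replicate 1. All 6 atrial genes were past 2-fold higher in replicate 1. By mean level the highest was Nppa, with 753 TPM in replicate 1 and 116 TPM in replicate 2, and the lowest Stard10, with 13.5 and 4.24 TPM. The largest ratio of that list was that of Bmp10, named after its values were seen, with 44.1 and 0.33 TPM. Of the 4 Schwann and neuronal genes with enough counts, 3 were. None of the 8 cardiomyocyte, 7 fibroblast, 5 endothelial, 6 macrophage and 5 red blood cell genes with enough counts was past 2-fold. All 7 fibroblast, 5 endothelial and 6 macrophage genes were higher in replicate 1, with medians on the log2 scale of 0.42, 0.07 and 0.44. All 8 cardiomyocyte genes were lower in replicate 1 by scaled counts, by a median log2 ratio of -0.19. All 5 red blood cell genes were lower too, at -0.25. Both are the direction of Pdk4. By summed TPM the 8 cardiomyocyte genes were higher in replicate 1, at 29905 against 28912, so their direction depends on the scale. The red blood cell genes were lower by summed TPM too, at 12065 against 12945. The part of these cell types in the ratios of Pcx, Pdp2 and Pdk4 was not tested. The group holds 2 libraries, so none of these ratios can be had without one of them.

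**Figure D4:**
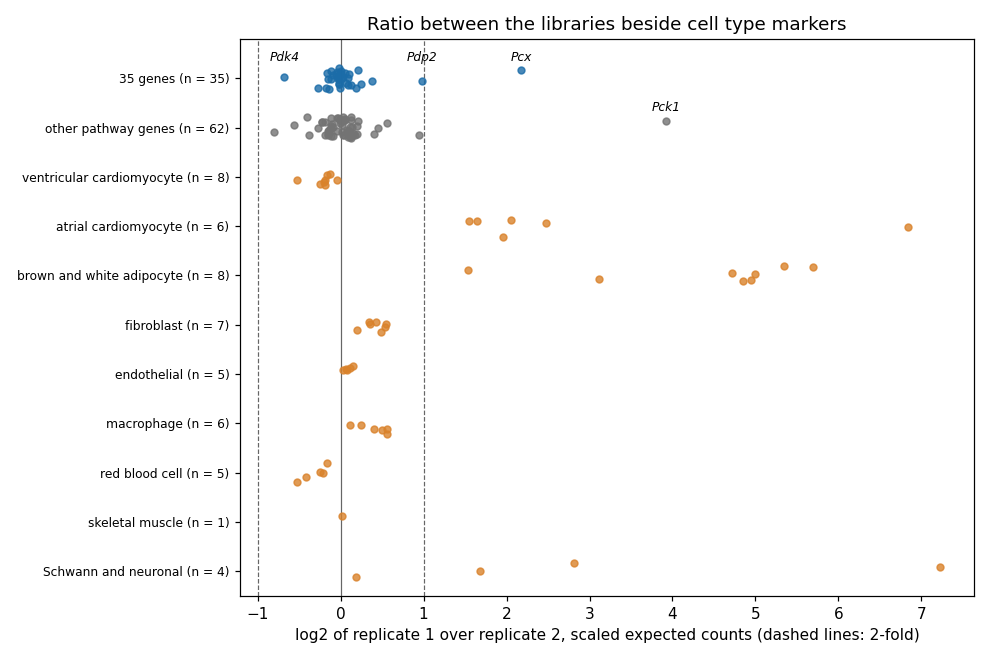
log2 ratio of replicate 1 over replicate 2 from scaled expected counts for the 35 genes, for 62 other genes of the pathway and for lists of cell type markers, each point a gene with a mean count of at least 50; dashed lines mark 2-fold and the vertical scatter within a row carries no meaning. The adipocyte and atrial genes lie to the right of 2-fold, as do Pcx and Pck1, while nearly all other genes of the pathway lie near 0. The row named ventricular cardiomyocyte holds 8 cardiomyocyte genes, most of them not restricted to the ventricle.

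Other genes of the pathway were set beside the 35 as 7 lists with 68 genes, of which 61 were detected. Of the 62 with a mean count of at least 50, 1 was past 2-fold higher in replicate 1 and none lower, with a median log2 ratio of 0.02. That gene was Pck1, the cytosolic phosphoenolpyruvate carboxykinase that draws oxaloacetate off for glyceroneogenesis in fat and gluconeogenesis in liver. Its expected count was 2666 in replicate 1 against 159 in replicate 2, which gives a log2 ratio of 3.92 (interval 3.69 to 4.17). Pck1 thus moved with Pcx and with the adipocyte genes, and the part of fat in it was not tested.

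Among other isozymes, 4 of 7 genes were detected. The cytosolic Aco1, which also serves as an iron-regulatory protein, had 18.3 TPM in replicate 1 and 14.3 TPM in replicate 2, and Ogdhl, a paralog of Ogdh, had 5.56 and 6.10 TPM. At the entry of pyruvate, 6 of 8 genes were detected, led by Ldhb with 688 and 646 TPM, Pkm with 537 and 433 TPM and Ldha with 377 and 299 TPM. All 6 lipoylation genes, which serve the making or attachment of the lipoate arm that E2 subunits need, were detected. They were led by Glrx5 with 35.9 and 27.4 TPM, Lias with 23.7 and 19.7 TPM and Mecr with 13.2 and 10.9 TPM. The 4 assembly factors of succinate dehydrogenase were led by Sdhaf2 with 25.9 and 24.4 TPM, Sdhaf4 with 26.8 and 21.97 TPM and Sdhaf1 with 6.31 and 5.40 TPM, well under the subunits they serve.

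Of the carriers for the shuttle, 6 of 7 were detected. The oxoglutarate carrier Slc25a11 had 158 TPM in replicate 1 and 143 TPM in replicate 2. The aspartate-glutamate carriers were Slc25a12, with 88.8 and 79.2 TPM, and Slc25a13, with 30.9 and 30.7 TPM. Of the genes that fill or drain the cycle, 20 of 21 were detected, led by Nnt, the NADPH-making transhydrogenase, with 182 TPM in both libraries, the methylmalonyl-CoA epimerase Mcee with 55.3 and 50.4 TPM and the glutamate dehydrogenase Glud1 with 54.2 and 45.9 TPM. All 15 regulators were detected, led by the coactivator Ppargc1a with 92.0 and 89.3 TPM, the insulin receptor Insr with 53.9 and 53.2 TPM and the nuclear receptor Esrra with 52.1 and 41.9 TPM.

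The 35 genes have 184 annotated transcripts, and how each quantification divided reads among them was compared next. The same transcript led in both quantifications for 30 of the 35. The leading transcript was protein-coding for 34 genes in the first quantification and for 32 in the other. Transcripts annotated as protein-coding held a median of 97.0% of a gene's TPM in replicate 1 and 97.1% in replicate 2, and 97.6% and 96.6% in the other quantification. The share reached 90% in both libraries for 23 genes in the first quantification and for 21 in the other. Dlat was among the genes they divided most differently. Dlat-201, the coding transcript of Dlat, held 62.1% and 62.0% of the gene's TPM in the first and 30.5% and 31.1% in the other.

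**Figure D5:**
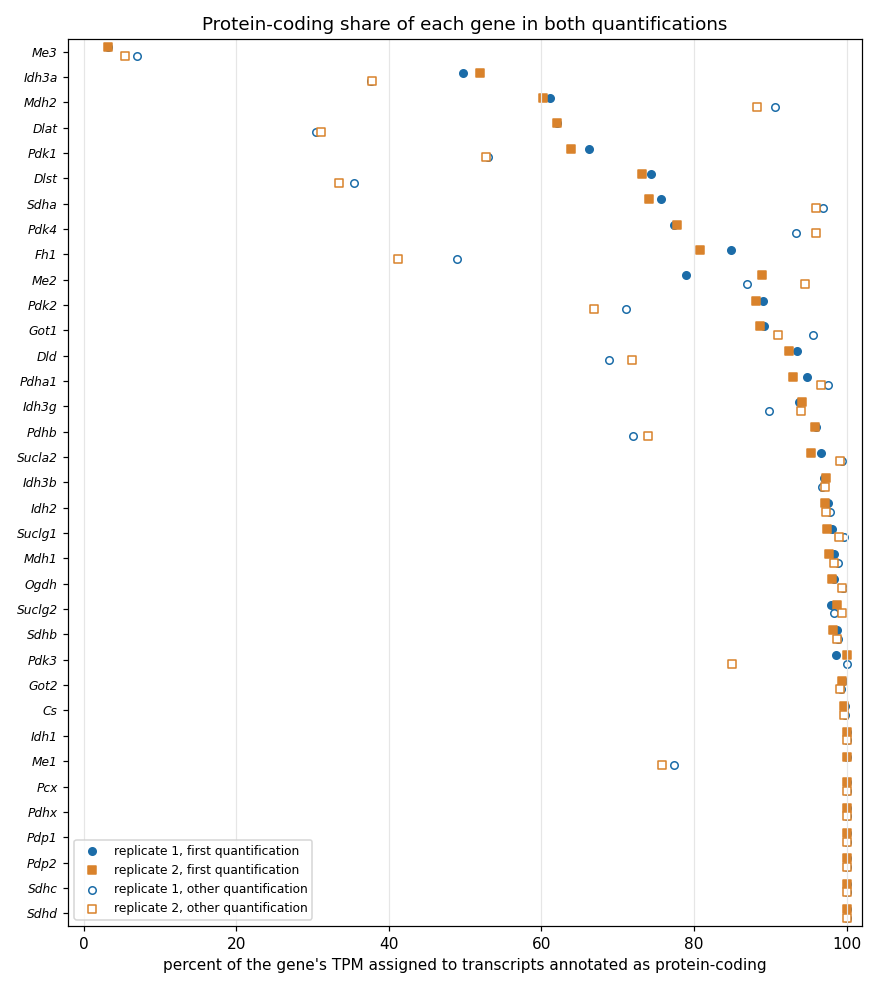
Percent of each gene's TPM assigned to transcripts annotated as protein-coding; circles are replicate 1 and squares replicate 2, filled for the first quantification and open for the other. The libraries lie close together within each quantification, Me2 and Pdk3 excepted, whereas Mdh2, Dlat, Dlst and Fh1 differ between the quantifications, and Me3 is low in both.

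Me3 was the gene whose coding transcript was lowest in both. Me3-202, its protein-coding transcript, was assigned 1.42 TPM in replicate 1 and 1.32 TPM in replicate 2, and 3.69 and 3.09 TPM in the other quantification. The processed transcript Me3-201 had 22.6 and 23.9 TPM and the retained-intron transcript Me3-203 had 18.9 and 15.6 TPM. All of the coding bases of Me3-202 lie in one or the other of these, with 55.4% in Me3-201 and 76.2% in Me3-203, and Me3-202 ends in a last exon of 2624 bases where that of Me3-201 has 227. The level of full coding RNA for Me3 therefore cannot be read from the transcript tables.

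Ogdh has a pair of alternative exons in the same place of its coding sequence, and the hearts used nearly always the later one. The gene lies at chr11:6291633-6356642 of mm10 on the plus strand. Both exons are the fourth of their transcripts and are shown because they decide which form of the protein is encoded; no letter is in capitals, as no shorter part was singled out. The later exon, chr11:6316978-6317080, is in Ogdh-201 and Ogdh-204, and the earlier, chr11:6316765-6316855, in Ogdh-202 and Ogdh-203.
Ogdh later exon: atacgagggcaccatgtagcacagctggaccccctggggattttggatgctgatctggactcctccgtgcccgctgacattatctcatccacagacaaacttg
Ogdh earlier exon: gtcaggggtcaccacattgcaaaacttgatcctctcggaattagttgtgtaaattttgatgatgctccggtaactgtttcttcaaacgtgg
The lengths of 103 and 91 bases leave the same remainder of 1 when divided by 3, so either keeps the reading frame. Transcripts with the later exon had 479 TPM in replicate 1 and 409 TPM in replicate 2, and those with the earlier exon had 5.94 and 5.04 TPM. The later exon was thus in 98.8% of the transcripts that hold either, in each library. In the other quantification the share was 98.9% in replicate 1 and 98.8% in replicate 2. Transcripts with the later exon held 88.5% and 86.4% of the gene's TPM in the first quantification and 51.9% and 51.4% in the other. The rest was mostly on transcripts with neither exon.

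For Mdh2, at chr5:135778480-135790398 on the plus strand, the coding transcript Mdh2-201 had 424 TPM in replicate 1 and 358 TPM in replicate 2. Mdh2-203, which lacks the second exon and is annotated as a target of nonsense-mediated decay, had 264 and 232 TPM, or 38.03% and 38.8% of the gene. The exon it lacks, chr5:135783305-135783473, is shown in lower case.
Mdh2 second exon: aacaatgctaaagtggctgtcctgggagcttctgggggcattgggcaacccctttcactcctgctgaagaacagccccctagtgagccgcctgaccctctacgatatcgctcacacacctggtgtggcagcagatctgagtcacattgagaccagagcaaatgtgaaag
Its 169 bases leave a remainder of 1 when divided by 3, so leaving it out shifts the reading frame. In the other quantification Mdh2-203 had 77.0 and 91.8 TPM, or 8.68% and 10.9% of the gene, and Mdh2-201 had 723 and 672 TPM. The share without the exon was alike in both libraries but averaged 38.4% in the first quantification and 9.78% in the other.

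Idh3a was divided almost evenly between its coding transcript Idh3a-205, with 123 TPM in replicate 1 and 94.4 TPM in replicate 2, and Idh3a-204, with 116 and 79.5 TPM, which carries an extra exon and is annotated as a target of nonsense-mediated decay. In the other quantification Idh3a-204 led, with 204 and 165 TPM against 125 and 102 TPM for Idh3a-205. The share of Idh3a-204 was 46.7% and 43.7% in the first and 61.4% and 61.0% in the other.

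In 4 more genes the leading transcript differed between quantifications. Fh1-201, a coding transcript of Fh1, led in the first with 118 TPM in replicate 1 and 101 TPM in replicate 2, and Fh1-204, annotated as a target of nonsense-mediated decay, led in the other with 155 and 168 TPM. For Idh1, Idh1-201 had 17.2 and 12.9 TPM in the first and 0.931 and 1.62 TPM in the other, where Idh1-203, with another first exon, had 19.6 and 15.7 TPM. Sucla2-203 led in the first with 148 and 126 TPM, and Sucla2-201 was close to it in the other, with 170 and 142 TPM against 163 and 148 TPM. Pdp1 was spread over 6 coding transcripts in the first, where Pdp1-201 held 17.1% and 26.1%, whereas Pdp1-205 held 89.3% and 74.0% in the other.

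Pcx, at chr19:4510472-4621752 on the plus strand, has annotated transcripts from an upstream and a downstream start, and the quantifications differed in where they placed its reads. The gene is known to use alternative promoters, and in rat the one nearer the coding sequence is described as active in liver and fat. The 250 bases before each start are shown, from the RefSeq promoter windows of GRCm38.p6, chr19:4510222-4510471 and chr19:4594069-4594318, because the first quantification placed most of the difference between the libraries at the downstream start. Capitals mark the E-box CACGTG, the same on both strands and overlapping no other motif searched.
Pcx upstream start: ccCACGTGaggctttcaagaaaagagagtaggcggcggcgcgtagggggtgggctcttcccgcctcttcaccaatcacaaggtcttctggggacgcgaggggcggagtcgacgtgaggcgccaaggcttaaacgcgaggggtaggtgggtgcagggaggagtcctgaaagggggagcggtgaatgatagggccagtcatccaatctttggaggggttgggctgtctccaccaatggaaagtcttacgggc
Pcx downstream start: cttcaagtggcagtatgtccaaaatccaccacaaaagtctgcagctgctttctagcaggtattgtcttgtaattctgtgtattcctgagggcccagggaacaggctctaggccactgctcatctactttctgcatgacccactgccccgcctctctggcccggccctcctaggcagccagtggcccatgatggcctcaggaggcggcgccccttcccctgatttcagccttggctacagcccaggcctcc
The E-box occurred once before the upstream start and not before the downstream one, and 7.15% of all 32851 windows hold it. Transcripts from the downstream start, Pcx-202 and Pcx-207, had 6.0 TPM in replicate 1 and 0.66 TPM in replicate 2, or 62.8% and 34.2% of the gene. The other transcripts had 3.56 and 1.27 TPM, of which Pcx-204 had 3.23 and 1.20 TPM, or 33.8% and 62.2% of the gene. In the other quantification the downstream transcripts had 0.117 and 0.00432 TPM, and the rest 14.0 and 3.32 TPM, so it placed almost all reads at other starts. The ratio between the libraries was present in both, while the start it came from could not be settled from these tables.

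Some of the 35 share sequence with other genes, and their values are uncertain to that degree. Of 31-base words in each main coding transcript, under 1% occurred in other genes for 25 of the 35, and 10% or more for 5. The highest was Got2, with 57.0% shared. The others were Me1, with 43.4% shared, Pdhb with 41.9% in the pseudogene Gm6123, Suclg2 with 36.3% in the pseudogene Gm15163, and Pdha1 with 20.8%, most of it in Map3k15 on the opposite strand. For Me1, the sharing gene with the highest level was Gm7329, which holds 4.79% of its words and was assigned 18.1 TPM in replicate 1 and 12.4 TPM in replicate 2. Gm6123 was assigned 0.94 TPM in replicate 1 and 1.51 TPM in replicate 2, Gm15163 7.64 and 6.72 TPM, and Map3k15 0.16 and 0.17 TPM. Exons of 6 of the 35 overlap a gene on the other strand, of which Nop56, beside Idh3b, was the highest with 18.2 and 14.7 TPM over 5 shared bases.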

How the data were processed

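Total RNA of heart in 2 libraries of 1 group was analysed from the deposited tables; the members, lists, pairs and rules were chosen with earlier results of these data known. Per the file headers, the authors deposited expected counts, TPM and FPKM per gene and per transcript on mm10 with GENCODE M21, derived from alignments to the transcriptome; the other deposited table holds estimated counts and TPM per transcript, derived from reads. The deposited credibility bounds of TPM, a value of another kind, were not used here. Program names and versions, and whether counting used strand, are not given in the sources used here. Reads of a B6 and CAST hybrid were assigned to a B6-based reference. Per the labels, libraries were stranded, reduced in ribosomal RNA, spiked with ERCC RNAs and made from 300 ng of RNA.

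Expected counts were rounded, scaled by TMM (edgeR 4.0.16; DESeq2 1.42.0 size factors as an alternative; R 4.3.3, Python 3.11.15), and 0.5 was added to each. The ratio was tested on simulated data and read at a mean count of at least 50. Rows that name no gene were left out; they held 3.89 counts in replicate 1 and 3 in replicate 2. A floor of 3 counts equals 0.0772 and 0.0791 CPM. Intervals cover counting error only, as PCR copies cannot be told from separate molecules. Pairs used TPM with 0.1 added. No p-value was computed. Named genes were the 35, the 3 highest of each list with any past 2-fold, the lowest and highest of each marker list, and transcripts under 50% or differing between quantifications; Retn, Bmp10, Dlat-201, Me3, Ogdh, Mdh2 and sharing genes were added after their values were seen. A few genes that this rule names are not reported here. Promoter sequences are from RefSeq (31 of 35 genes matched), exon sequences from GENCODE M21 transcripts.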

Additional observations from a re-analysis of the deposited data

How the results depend on the processing

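The 35 genes stayed detected under the other quantification, FPKM and either library alone, and 31 reached 10 TPM; of the other pathway genes 39 reached 10 TPM, against 61 at 1 TPM. Without one of the libraries, 61 to 62 of these were detected, the share of TPM was 0.772% to 0.869%, the median level 198 to 226 TPM, the pairs past 2-fold numbered 12 each time, and 28 to 30 genes kept 1 leading transcript in both quantifications. The mean share of TPM was 1.10% in the other quantification and 1.11% when TPM was rescaled over genes outside the mitochondrial genome. The median level was 306 TPM in the other quantification, 287 TPM so rescaled and 172 as FPKM. Past 2-fold between the libraries were 2 genes with the size factors of DESeq2, 2 with total counts and 2 with totals outside the mitochondrial genome, where Pdp2 joined Pcx, and 3 at 1.5-fold, against 1. The median log2 ratio was 0.09 with total counts and 0.0589 with totals outside the mitochondrial genome, against 0.10 and 0.07 over all genes. The cause of these shifts was not tested, except that the scalings differ by a constant. Over alternatives for single genes, chosen after seeing the data, the log2 ratio of Pcx was 2.15 to 2.28, of Pdp2 0.94 to 1.09 and of Pdk4 -0.68 to -0.57. The sign changed for 13 of the 35, none with an absolute log2 ratio over 0.0906. Levels were higher in the other quantification for 33 of the 35. The ratio to the first had a median of 1.34 over all 35 and ranged from 0.737 for Sdhc to 2.34 for Dlat. By over 1 SD, 28 levels moved. No paired analysis was possible because the study has 1 group.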

Other observations

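Motifs chosen after the data were seen were searched on both strands of the RefSeq promoter windows, 250 bases before to 50 after each start, of the 31 genes found there. The windows numbered 41, against 32851 over all genes. The half-site AAGGTCA of estrogen-related receptors was in 3 of the 41 (Got1, Ogdh and Sdhd), and in 4.72% of all windows. The core GCATGCGC of nuclear respiratory factor 1 was in 3 of them (Ogdh and Sdhb), and in 2.71% of all windows. The E-box CACGTG was in 6 (Ogdh, Pcx, Pdk2 and Pdp2), and in 7.15% of all, and the YY1 motif GCCATNTT in 4 (Idh3b, Idh3g and Ogdh), and in 6.05% of all. Several windows of Ogdh overlap, so they are not separate. These matches are a description of letters and no more.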
